A study of Bos grunniens and Bos grunniens x Bos taurus with 12 samples.

Results

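Ribo-seq of testis was used to follow 145 genes that encode proteins of the cytosolic ribosome but carry no gene symbol in the annotation of the yak genome. They were chosen from the 20965 genes of the deposited tables by their entries: the symbol field was empty, the description named a ribosomal protein or a 40S or 60S protein, and mitochondrial ribosomal proteins and kinases were left out. The rule uses no measured value, but it was set with earlier results of these data known. The question was whether yak and cattle–yak differ in how many ribosome footprints (RFs, the mRNA fragments protected by a translating ribosome) were counted on these genes, and in which of several gene copies of the same protein received them.

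The libraries fell into 4 groups of 3 male animals from the same cooperative. Yak were sampled at 6 months (juvenile), 18 months (puberty) and 4 years (sexual maturity), and cattle–yak at 4 years. Cattle–yak are the hybrids of Jersey cattle as sire and Gannan yak as dam, and the males are sterile. The labels name no treatment of the animals and give castration as the source of all testes, whereas the study's methods give castration for the cattle–yak and euthanasia for the yak of 4 years. If the latter holds, the way of collection and the group cannot be told apart. The tissue was whole testis, so for every value below fewer cells of a type and less RNA per cell cannot be told apart. All libraries were aligned to the yak genome, while a cattle–yak also carries cattle alleles.

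Each mammalian ribosome is built from a small (40S) and a large (60S) subunit, and nearly every protein of both subunits is present once per ribosome. In most mammals each of these proteins comes from a single gene with introns, accompanied in the genome by many intron-less copies made by reverse transcription of its mRNA. Most of these copies are thought to be inactive, but several serve male germ cells, in which the X chromosome with its ribosomal protein genes is silenced during meiosis. Since a copy often differs from its source gene at few bases, a short footprint can match several copies. RSEM, which made the deposited counts, divides such reads among the copies by an estimate. In these counts, translation of a copy and the assignment to it of reads from a near-identical copy cannot be told apart.

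The 145 genes were assigned to 61 proteins by their descriptions, with 88 genes for proteins of the large subunit and 57 for the small subunit. Of these proteins, 46 had no gene with a symbol at all, and 15 had one beside the unnamed copies. Among the genes matched by description, the unnamed gene was then often not a minor copy. In 47 of the 61 proteins, the gene with the most counts over all libraries was an unnamed one, and in 14 it was the gene with the symbol. For 11 proteins there was 1 gene, and for the remaining 50 there were between 2 and 7, with 7 genes each for RPS27 and RPS4X. The leading gene held at least 99% of the counts of its protein in 29 of the 50. The descriptions name the closest protein of another animal rather than the locus. Of the 145 genes, 143 also carried a KEGG orthology number. A further 45 genes without a symbol shared one of these numbers under a description that did not meet the rule. Some of these descriptions name a ribosomal protein in short form, such as RPL13 protein, and others name none. These 45 genes summed to between 629 and 931 CPM (counts scaled to an equal total in every library), and they enter only where KEGG orthology is named. In RPL10, RPL13, RPS13, RPS15A and RPS23, a gene matched by KEGG orthology alone had more counts than the unnamed leading gene. The leading gene by description was thus a lesser copy in these proteins.

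Total counts per library were 25816963 to 37167651 at 6 months, 21309151 to 24542362 at 18 months, 16304058 to 17862516 at 4 years and 38437889 to 52616039 in cattle–yak, so depth differed with the group. For its groups of yak and cattle–yak, the study also reports a shorter main RF length in cattle–yak. A larger part of the cattle–yak reads aligned to the yak genome. Whether these differences bear on the division of reads among copies was not tested. The marker lists showed spermatids in the yak of 4 years and few elsewhere. The summed level of 8 round spermatid markers was 1238 to 1737 CPM at 4 years, 1.20 to 2.07 CPM at 6 months and 6.22 to 10.9 CPM in cattle–yak, and all 8 were lower in cattle–yak. All 4 Leydig cell and all 7 peritubular myoid markers tested were higher in cattle–yak, as were 3 of 5 Sertoli cell markers. One library of 18 months (replicate 2) stood apart with 718 CPM of round spermatid markers against 3.61 and 7.70 CPM in the others of that age. The part of these differences in cell types in the values below was not tested. Replicates differed by more than counting noise over the unnamed ribosomal protein genes, with chi-square per degree of freedom between 13.7 and 104.

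Most of the RFs lay on few of the genes. Of the 145 genes, 19 had no count in any of the 12 libraries, and 39 more had at most 10 counts in every library. At the other end, 50 genes had at least 100 counts in every library, and 37 lay between. The 46 genes with a mean of at least 1000 counts held 97.9% of all counts of the 145. Summed over all 145, the level was 7349 to 8609 CPM at 6 months, 9275 to 10731 CPM at 18 months, 8229 to 9191 CPM at 4 years and 9700 to 10316 CPM in cattle–yak, and the cattle–yak lay above the yak of 4 years without overlap but not above the yak of 18 months.

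On the scale of FPKM (counts relative to both gene length and library total), which allows a comparison between genes, RPL37A and RPS28 led. RPL37A (ENSBGRG00000002272), a zinc-binding protein of the large subunit, measured 1703, 1315 and 1468 FPKM at 6 months, 2022, 2169 and 1697 FPKM at 18 months, 2259, 2452 and 2261 FPKM at 4 years and 1373, 1768 and 1346 FPKM in cattle–yak. The yak of 4 years were all above the cattle–yak, but the log2 fold change of cattle–yak over yak of 4 years was -0.47 (adjusted p = 0.0208), smaller than the fold of 2 (1 on the log2 scale) that was required for a call. RPS28 (ENSBGRG00000025044), a small protein near the mRNA exit of the small subunit, measured 871, 725 and 652 FPKM at 6 months, 1028, 1263 and 1392 at 18 months, 1508, 1446 and 1246 at 4 years and 1988, 2172 and 2428 in cattle–yak. All 3 cattle–yak lay above all 9 yak, with a log2 fold change of 0.66 ± 0.13 (SE, n = 3 per group) against the yak of 4 years and adjusted p = 2.59e-03, again below the required fold.

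RPL35 (ENSBGRG00000019233), a large-subunit protein at the mouth of the exit tunnel, was the single gene among the 10 highest to be called. Its level was 803, 717 and 584 FPKM at 6 months, 992, 1810 and 1217 at 18 months, 2062, 2113 and 1878 at 4 years and 741, 967 and 809 in cattle–yak. The yak of 4 years were above every other library, and the cattle–yak overlapped with the yak of 6 months and lay below those of 18 months. The log2 fold change of cattle–yak over yak of 4 years was -1.26 ± 0.14 (SE, n = 3 per group), with adjusted p = 8.43e-05. The description of RPL35 also matched a second gene that did not pass the filter on low counts, so that the leading gene and the sum over both gave the same fold.

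Other genes among the 10 highest moved less. RPS24 (ENSBGRG00000025877) measured 711 ± 22.3 FPKM (SD, n = 3) at 4 years and 944 ± 43.8 FPKM in cattle–yak (log2 fold change 0.42, adjusted p = 8.86e-03). RPS27A (ENSBGRG00000017422), which is made as a fusion with ubiquitin, measured 678 ± 31.6 FPKM at 4 years and 1008 ± 148 FPKM in cattle–yak (log2 fold change 0.58, adjusted p = 8.20e-03). Neither reached the required fold, although their groups did not overlap. RPS14, RPS15, RPL24 and RPS25 had log2 fold changes between -0.02 and 0.31 and adjusted p above the threshold. RPS14 (ENSBGRG00000022490), the sole gene of its protein by description, is a neighbour of the mRNA on the platform of the small subunit. It measured 818 ± 34.3 FPKM at 4 years and 800.2 ± 36.0 FPKM in cattle–yak, a difference smaller than the spread within either group. By KEGG orthology a further gene (ENSBGRG00000010935) belongs to RPS14, with 69, 118 and 64 counts at 4 years and 1536, 725 and 993 in cattle–yak. That gene was called higher in cattle–yak (log2 fold change 2.37, adjusted p = 1.17e-04).

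**Figure D1:**
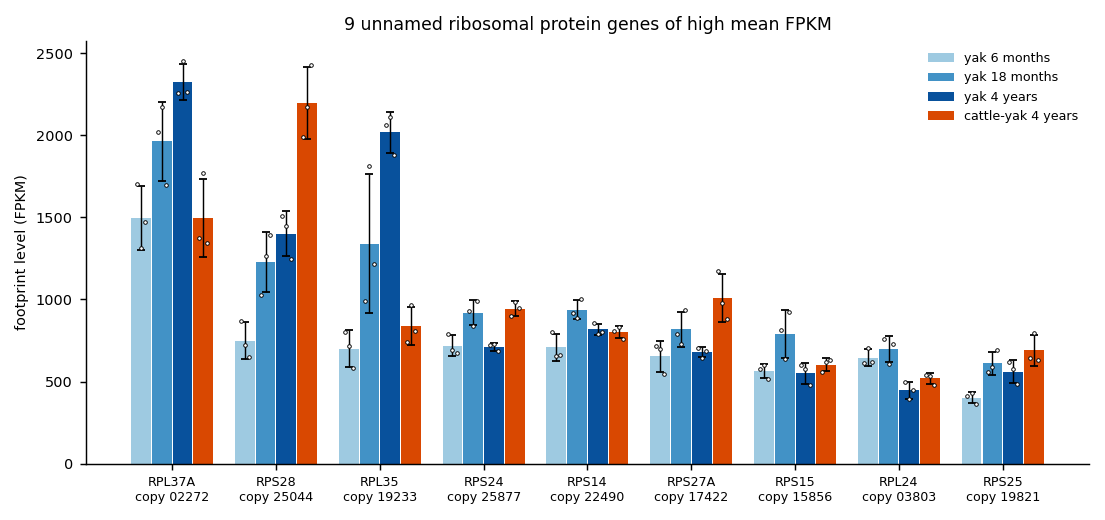
Footprint level in FPKM (vertical axis, from 0) of 9 unnamed ribosomal protein genes among the 10 with the highest mean over the 12 libraries. Bars give the mean of 3 libraries of yak of 6 months, 18 months, 4 years and of cattle–yak, points the single libraries and error bars the SD. RPL35 copy 19233 falls from 2018 FPKM at 4 years to 839 FPKM in cattle–yak, and RPS28 copy 25044 reaches 2196 FPKM in cattle–yak.

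In the comparison of cattle–yak with yak of 4 years, 76 of the 145 genes passed the filter on low counts and 69 did not. Of the 76, 20 were called higher in cattle–yak (26.3%) and 11 lower (14.5%), where a call needs an adjusted p below 0.05 and a fold of at least 2. Over all 16498 genes tested, 17.1% were called higher and 27% lower, 44% in all against 40.8% of the unnamed ribosomal protein genes. The share called was therefore near the background, and the direction leaned to higher where all genes leaned to lower. A further 20 genes passed the adjusted p without reaching the fold, and 25 did not pass it. The median log2 fold change of the 76 was 0.47, beside -0.00 over all genes tested, and 51 of the 76 had a value above 0. In 54 of the 76 (71.1%) the 3 libraries of either group did not overlap in CPM, beside 71.3% of all genes tested.

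The calls were concentrated on poorly covered genes. Of the 46 genes with a mean of at least 1000 counts, 8 were called (7 higher and 1 lower), and their log2 fold changes lay between -1.26 and 1.75 with a median of 0.29. Of the other 30 genes tested, 23 were called (13 higher and 10 lower). In the same way, 7 of the 43 tested genes that lead their protein were called, against 24 of the 33 that do not lead. The filter bears on this: 9 genes had at most 10 counts in all 3 libraries of one of the groups, so that they passed through the group in which they were higher, and all 9 were called. The share called among all genes of like coverage is not given here. These splits therefore cannot be called particular to the unnamed ribosomal protein genes.

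Counts summed over all genes of a protein do not depend on how reads were divided among its copies. Of the 57 proteins that could be tested as sums, 6 were called higher in cattle–yak and 2 lower, beside 17% and 27% of all genes and sums in that fit, and the median log2 fold change of the sums was 0.43. The higher ones were RPS20 (1.52), RPL32 (1.42), RPS3 (1.31), RPL8 (1.29), RPS13 (1.22) and RPL34 (1.05). In RPL32, RPS3 and RPL8 nearly all counts of the copies matched by description lay on the gene with the symbol. The lower ones were RPL35 (-1.26) and RPL10 (-4.79). Without replicate 1 of the yak of 4 years the number of proteins called higher was 12. Summed by KEGG orthology, a grouping chosen after seeing the data, 6 of 59 proteins were called higher and 2 lower. RPS3 and RPS13 (both 0.99) fell short of the fold, RPL39 (1.68) was called higher, RPS15A (-1.42) lower, and RPL10 turned from lower to higher (1.20). Of the 31 single genes called, 23 belonged to a protein whose sum was not called in the same direction, and 8 to a protein whose sum was.

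**Figure D2:**
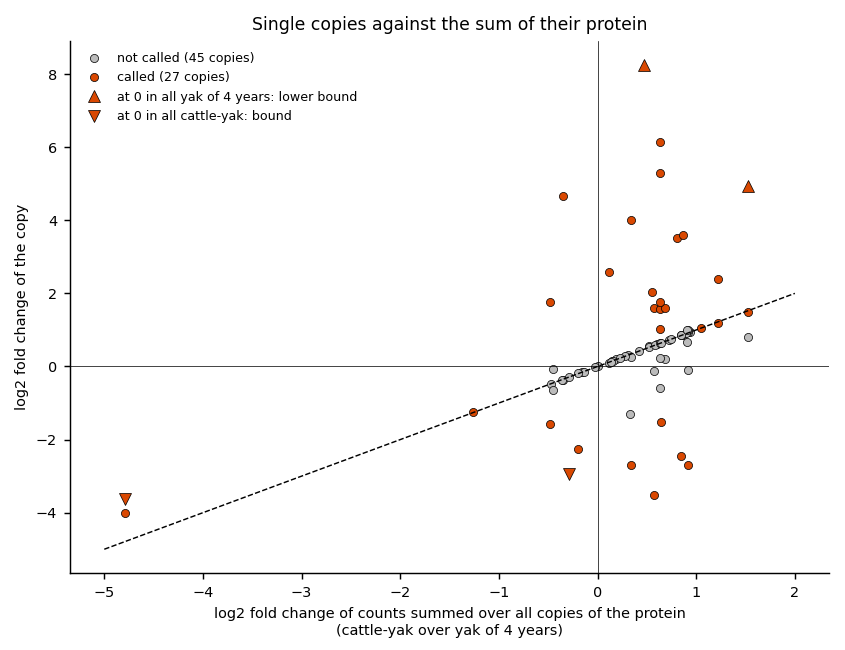
Log2 fold change of cattle–yak over yak of 4 years for the 76 unnamed genes tested (vertical axis) against the same value for the counts summed over all genes of their protein (horizontal axis). The dashed line marks equal values, orange the 31 genes called, and triangles the 4 genes at 0 in all libraries of a group, drawn at their bound from a floor of 3 counts per library. Single copies range from bounds above 8 to -4 while most sums lie between -0.5 and 1.5. Genes with few counts in a group are drawn at their fitted value.

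RPS20, RPS13 and RPL34 were the proteins that rose as sums and were carried by unnamed genes. RPS20 lies at the head of the small subunit, and its copy ENSBGRG00000007840 measured 32.5, 27.2 and 18.0 CPM in the yak of 4 years and 67.5, 74.6 and 77.6 CPM in cattle–yak. These cattle–yak values lay above all 9 yak libraries (log2 fold change 1.50 ± 0.21, n = 3 per group, adjusted p = 3.81e-04). RPS13 is a small-subunit protein at the interface with the large subunit, and its copy ENSBGRG00000001362 measured 20.5, 20.4 and 12.9 CPM at 4 years and 39.0, 41.2 and 42.6 CPM in cattle–yak. The latter were again above all 9 yak libraries, with a log2 fold change of 1.19 ± 0.20 and adjusted p = 8.35e-04. A minor RPS13 copy (11976) had 12, 5 and 4 counts at 4 years and 83, 90 and 97 counts in cattle–yak (log2 fold change 2.40, adjusted p = 2.67e-03).

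The sums of RPS3 and RPS13 depended on what was counted as a copy. By KEGG orthology an unnamed gene (ENSBGRG00000015174) belongs to RPS3, with 646, 869 and 640 counts at 4 years and 1379, 691 and 924 in cattle–yak. In the same way, 67.7% to 80.2% of the RPS13 counts lay on a gene (ENSBGRG00000009189) whose description names a subunit of a phosphatidylinositol kinase. That gene measured 1065, 1005 and 835 counts at 4 years and 4534, 5035 and 3694 in cattle–yak, with a log2 fold change of 0.91 and adjusted p = 1.67e-03, below the required fold. RPL34 (ENSBGRG00000000373), a large-subunit protein, had no other gene. It measured 44.2, 38.2 and 35.0 CPM at 4 years and 66.3, 93.0 and 83.1 CPM in cattle–yak (log2 fold change 1.05 ± 0.16, adjusted p = 5.54e-04). The groups did not overlap, but without replicate 2 of the cattle–yak the log2 fold change was 0.95 and the gene was no longer called, and the yak of 6 and 18 months overlapped with the cattle–yak.

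Placement, the level of a copy relative to the other copies of its protein, was tested with diffSpliceDGE for 53 unnamed genes of 26 proteins. A call needed an adjusted p below 0.05 and a copy whose log2 fold change differed from that of its protein by at least 1. Of the 53, 20 were called (37.7%), 12 higher and 8 lower in cattle–yak, and they belonged to 16 proteins. Over all 1810 genes in families of at least 2 tested genes with the same protein name, 15.6% were called, 6.69% higher and 8.9% lower. When copies were grouped by KEGG orthology, 22 of 60 (36.7%) were called, 12 higher and 10 lower, beside 16% of 1835 genes, 6.81% higher and 9.16% lower, and the 20 genes were all among them. Only 9 genes were called when a family was taken as the genes with an identical description. The number tested and the share over all genes under that definition are not given here, so the 9 cannot be set against 20 of 53. Without replicate 2 of the yak of 4 years, 13 genes were called. Of the 20 genes, 19 were also called for their level, and the exception was RPS4X copy 11214. Placement used the same filter, so copies that passed through the group in which they were higher, such as RPLP1 copy 13984, bear on it too. The share called among all genes of like coverage is not given here. The higher share of placement calls therefore cannot be called particular to the unnamed ribosomal protein genes.

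Shares of the counts of a protein, not corrected for the length of a copy, gave the same comparison per library. Of 130 unnamed genes with a share in all 6 libraries of 4 years, 15 (11.5%) from 8 proteins differed by at least 10 percentage points between cattle–yak and yak without overlap, beside 9.72% of 2840 genes in such families. By this measure the unnamed genes were near the background. Against all 9 yak libraries of the 3 ages, which are not replicates of a group, the cattle–yak shares did not overlap in 23 of 128 genes (18.0%), 16 above and 7 below, beside 11.5% of 2712 genes. With 3 libraries against 3, an exact two-sided permutation test cannot go below p = 0.1, and with 3 against 9 not below 0.00909. After adjustment over the 2712 genes this smallest value became 0.0788, so no share passed the threshold. The 15 genes are described by protein below, together with the better covered of the other copies.

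RPL9, a large-subunit protein near the base of the flexible stalk, shifted between well covered copies. Copy 03539 (ENSBGRG00000003539) held 52.0%, 46.4% and 54.5% of the RPL9 counts at 6 months, 45.7%, 39.4% and 47.2% at 18 months, 33.4%, 30.1% and 31.5% at 4 years and 62.4%, 66.3% and 65.4% in cattle–yak. The cattle–yak shares were above those of all 9 yak, 33.1 points above the yak of 4 years on average. Its level was 60.1, 43.9 and 47.8 CPM at 4 years and 147, 162 and 148 CPM in cattle–yak (log2 fold change 1.59 ± 0.15, n = 3 per group, adjusted p = 3.96e-05), and relative to RPL9 as a whole it rose by 1.02 on the log2 scale (adjusted p = 2.58e-03).

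The other large RPL9 copy lost share, while its level did not pass the test. Copy 25928 held 57.8%, 56.0% and 54.4% at 4 years and 37.2%, 33.1% and 33.2% in cattle–yak, 21.5 points less, while its own log2 fold change was -0.13 (adjusted p = 0.460). Its cattle–yak shares lay among those of the yak of 6 months (33.0%, 47.1% and 30.6%). The third copy, 10827, was nearly lost: it had 285, 356 and 345 counts at 4 years and 47, 50 and 107 counts in the more deeply sequenced cattle–yak. In CPM that was 16, 19.9 and 21.2 at 4 years and 0.893, 1.29 and 2.78 in cattle–yak, where every library was below all 9 yak (log2 fold change -3.53 ± 0.39, adjusted p = 9.46e-05). Its share fell from 8.88%, 13.7% and 13.9% to 0.379%, 0.532% and 1.23%, and relative to RPL9 as a whole its log2 difference was -4.10 (adjusted p = 6.35e-07). The sum over RPL9 was not called.

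RPS19, the small-subunit protein whose mutation causes Diamond-Blackfan anaemia in humans, had 2 copies, both without a symbol. Copy 06887 (ENSBGRG00000006887) held 40.8%, 40% and 30.7% at 6 months, 38.0%, 33.0% and 37.6% at 18 months, 26.6%, 25.1% and 21.5% at 4 years and 43.7%, 49.2% and 45.9% in cattle–yak, above all 9 yak and 21.9 points above the yak of 4 years. It measured 56.4, 48.6 and 33.0 CPM at 4 years and 123, 154 and 138 CPM in cattle–yak (log2 fold change 1.59 ± 0.21, adjusted p = 2.23e-04). Relative to the protein it was 0.91 higher on the log2 scale (adjusted p = 6.68e-03), short of the limit for a placement call. Copy 14536, which held the rest, had a log2 fold change of 0.20 with adjusted p = 0.219.

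RPS4X, a small-subunit protein encoded on the X chromosome of mammals, had 4 genes with enough counts to test, and its descriptions did not separate the X-linked form from other S4 forms. In the yak of 4 years most counts lay on copy 11214 (ENSBGRG00000011214), with 65.1%, 62.9% and 65.4%, and in cattle–yak this share was 32.0%, 24.5% and 26.7%, a mean difference of -36.7 points. At 6 months it was 10.3%, 16.1% and 18.1%, and at 18 months 14.6%, 41.7% and 21.2%, where the highest value belonged to replicate 2, the library with spermatid markers. The level of copy 11214 was 119, 100.3 and 101 CPM at 4 years and 81.0, 64.5 and 67.2 CPM in cattle–yak (log2 fold change -0.58 ± 0.15, adjusted p = 8.55e-03), and its placement was called lower (log2 difference -1.22, adjusted p = 0.0112).

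The other 3 tested genes of RPS4X were called higher. The gene with the symbol RPS4X held 21.3%, 21.2% and 17.7% of the counts at 4 years and 33.3%, 31.6% and 35.3% in cattle–yak, and its log2 fold change was 1.36 ± 0.16 (adjusted p = 1.10e-04). Copy 15272 (ENSBGRG00000015272) rose from 24.7, 25.1 and 24.0 CPM at 4 years to 70.6, 91.5 and 85.6 CPM in cattle–yak, above all 9 yak (log2 fold change 1.75 ± 0.13, adjusted p = 9.69e-06), and from 13.5%, 15.8% and 15.6% to 27.9%, 34.8% and 34.0% of the protein. Copy 03349 had no count at 6 months, 35, 12 and 16 counts at 18 months, 0, 0 and 22 at 4 years and 901, 916 and 382 in cattle–yak. It thus held 6.77%, 9.03% and 3.95% of RPS4X in cattle–yak, more than in any yak (log2 fold change 5.30 ± 0.97, adjusted p = 1.50e-03, and placement 4.66 higher with adjusted p = 3.61e-05). Of the 3 genes not tested, copy 16425 had 2, 2 and 11 counts at 4 years and none in cattle–yak, and the others had at most 5 counts in any library.

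RPL36A, a large-subunit protein that is also X-linked in mammals, had 6 unnamed genes and none with a symbol. The leading copy 15893 (ENSBGRG00000015893) held 76.1%, 72.1% and 70.2% at 4 years and 55.7%, 55.0% and 56.2% in cattle–yak, 17.2 points less, with a log2 fold change of its own level of 0.24 (adjusted p = 0.148). Copy 03813 (ENSBGRG00000003813) measured 73.8, 54.8 and 55.9 CPM at 6 months, 65.3, 37.1 and 69.6 at 18 months, 16.6, 13.3 and 17.4 at 4 years and 41.0, 58.1 and 41.6 in cattle–yak. The yak of 4 years were lowest, and the cattle–yak overlapped with the younger yak (log2 fold change 1.58 ± 0.19, adjusted p = 1.35e-04, share 12.8%, 12.4% and 13.6% against 23.4%, 27.8% and 23.4%). Copy 19813 was also called higher, with a log2 fold change of 1.02 and adjusted p = 5.57e-04. Copy 06453 had a sum of 1 count at 4 years and 69, 77 and 63 counts in cattle–yak, a CPM ratio of 83.8 with an exact 95% interval for counting error of 14.9 to 3.32e+03, beside 34, 0 and 43 counts at 18 months.

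RPL26 sits beside the exit tunnel of the large subunit. The unnamed copy 07087 held 48.2%, 56.1% and 56.9% of its counts at 4 years and 69.7%, 70.8% and 70.2% in cattle–yak, 16.5 points more, with a log2 fold change of its own of -0.06 (adjusted p = 0.662). The share of the gene with the symbol RPL26 moved the other way. It held 7.38%, 8.08% and 7.90% at 6 months, 6.21%, 19.1% and 6.14% at 18 months, 27.7%, 22.2% and 18.9% at 4 years and 9.02%, 9.95% and 8.95% in cattle–yak. It was called lower in cattle–yak (log2 fold change -1.76 ± 0.21, adjusted p = 1.27e-04), and its highest share among the younger yak was that of replicate 2 of 18 months. The second unnamed copy, 14439 (ENSBGRG00000014439), held 24.1%, 21.7% and 24.2% at 4 years and 21.3%, 19.2% and 20.9% in cattle–yak. The level of this copy differed by -0.64 ± 0.14 on the log2 scale (adjusted p = 3.38e-03), short of the required fold.

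RPLP1, an acidic protein of the lateral stalk that recruits elongation factors, had a copy that was counted almost solely in cattle–yak. Copy 13984 (ENSBGRG00000013984) had 6, 0 and 0 counts at 6 months, none in any library of 18 months or 4 years and 1931, 1811 and 2874 counts in cattle–yak. Against a floor of 3 counts per library it was at least 304-fold higher than in the yak of 4 years (adjusted p = 1.22e-05), and its placement was called with adjusted p = 2.74e-06. It held 16.6%, 15.2% and 21.2% of the RPLP1 counts in cattle–yak, at 36.7, 46.9 and 74.8 CPM. The gene with the symbol RPLP1 held nearly all counts in yak and 83.4%, 84.8% and 78.8% in cattle–yak, with a log2 fold change of 0.19 and adjusted p = 0.396.

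RPL36 and RPL10 also shifted by over 10 points, but on few counts. The descriptions of RPL36, a large-subunit protein, covered 2 genes with under 200 counts each in any library. Copy 06873 (ENSBGRG00000006873) had 23, 12 and 12 counts at 4 years and 134, 89 and 168 in cattle–yak, a rise from 17.3%, 8.39% and 11.4% to 54.7%, 48.6% and 70.0% of RPL36 (log2 fold change 1.76 ± 0.42, adjusted p = 5.88e-03). Copy 20721 went from 110, 131 and 93 counts to 111, 94 and 72, which in the deeper cattle–yak libraries was a log2 fold change of -1.57 (adjusted p = 6.27e-04). At 6 and 18 months the shares of these copies ranged widely and overlapped with the cattle–yak.

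For RPL10, a protein that completes the large subunit, the 2 unnamed genes held under 50 counts in any library. Copy 13207 had 17, 17 and 12 counts at 4 years and none in cattle–yak, where it was at least 12.4-fold lower against the floor of 3 counts per library (adjusted p = 4.18e-04). Copy 24703 had 15, 28 and 20 counts at 4 years and 2, 6 and 1 in cattle–yak (log2 fold change -4.0, adjusted p = 1.04e-03). By KEGG orthology both stand beside the gene with the symbol RPL10L, a name used for the autosomal retrocopy of RPL10. That gene had 6161, 7464 and 6056 counts at 6 months, 6205, 2084 and 4765 at 18 months, 751, 853 and 680 counts at 4 years and 5157, 4264 and 4132 in cattle–yak (log2 fold change 1.27 ± 0.11, adjusted p = 2.64e-05). No gene carried the symbol RPL10, and whether the gene named RPL10L is the retrocopy or RPL10 itself was not tested. RPL10L then held 95.9%, 95% and 95.5% of the counts at 4 years and over 99% in cattle–yak, so the fall of the RPL10 sum given above covered the minor genes alone, and the shifts of the copies became -1.92 and -2.55 points.

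**Figure D3:**
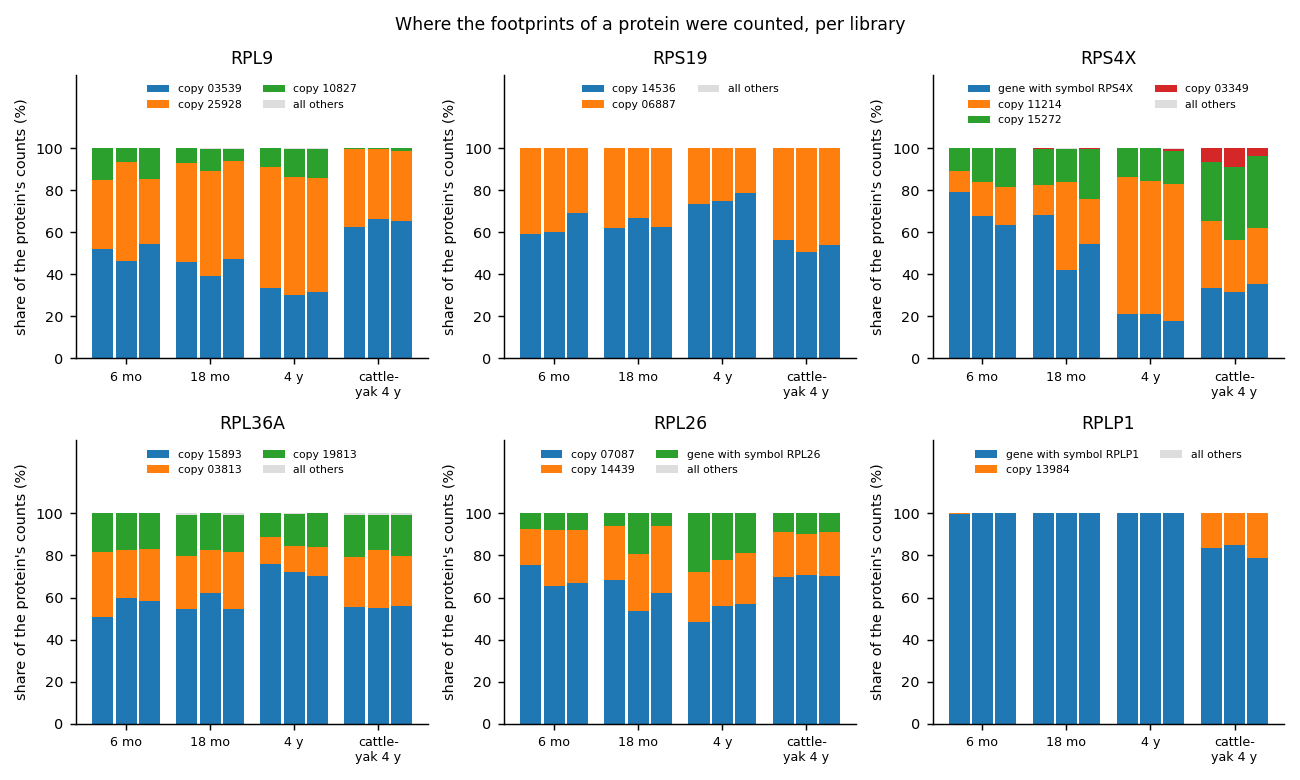
Share of the counts of a protein (vertical axis, %) on each of its genes in each of the 12 libraries, for RPL9, RPS19, RPS4X, RPL36A, RPL26 and RPLP1. Each bar is a library, in groups of 3 for yak of 6 months, 18 months, 4 years and cattle–yak, and grey holds the genes not drawn singly. In RPL9 the copy 03539 takes 62.4% to 66.3% in cattle–yak against 30.1% to 33.4% at 4 years, and in RPLP1 copy 13984 takes 15.2% to 21.2% in cattle–yak alone. In RPL36A copy 15893 holds 70.2% to 76.1% at 4 years and 55.0% to 56.2% in cattle–yak, within the range of the younger yak.

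Since the yak of 4 years stood apart from the younger yak in cell types, the cattle–yak were also set against all 9 yak libraries. Of the 76 genes tested, 16 (21.1%) were above all 9 yak in CPM and 6 (7.89%) below, beside 16.6% and 4.07% of all genes tested. Of the 31 called genes, 15 lay outside the range of the 9 yak, 11 above and 4 below, and the other 16 did not. The share among all called genes is not given here. The 15 therefore cannot be called particular to the unnamed ribosomal protein genes. Apart from the genes given above, the called genes above all 9 yak were minor copies. Genes above all 9 yak without a call included well covered ones. For example, RPL28 (ENSBGRG00000023074) measured 433, 520 and 507 FPKM in cattle–yak and at most 335 FPKM in yak. RPS26 copy 09517 had 0, 4 and 0 counts at 4 years, at most 2 in each younger yak and 69, 91 and 95 in cattle–yak (log2 fold change 4.67, adjusted p = 1.67e-03). RPL7A copy 02737 had 1 to 4 counts in every yak and 58, 36 and 54 in cattle–yak (3.53, adjusted p = 8.46e-04). Cattle–yak libraries held more counts in all, and in CPM both copies were also above every yak.

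RPL29 copy 00454 and RPL21 copy 16005 completed that group. The RPL29 copy had 15, 10 and 7 counts at 4 years and 110, 144 and 65 in cattle–yak (log2 fold change 2.03, adjusted p = 4.95e-03). The RPL21 copy had 2 counts in all at 4 years and 33, 14 and 21 in cattle–yak, a CPM ratio of 13.6 with an exact 95% interval of 3.63 to 115 for counting error. Below all 9 yak, beside RPL9 copy 10827 and RPL10 copy 13207, lay copies of RPL7 and RPS28. RPL7 copy 17055 measured 14.8, 9.18 and 7.79 CPM at 4 years and 2.76, 2.72 and 1.09 CPM in cattle–yak (log2 fold change -2.26 ± 0.42, adjusted p = 1.67e-03). RPS28 copy 18688 measured 5.34, 3.64 and 4.66 CPM at 4 years and 1.33, 1.27 and 2.19 CPM in cattle–yak (-1.51 ± 0.32, adjusted p = 3.55e-03), opposite to the leading RPS28 gene, and its placement was called lower (log2 difference -2.15, adjusted p = 5.97e-04).

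**Figure D4:**
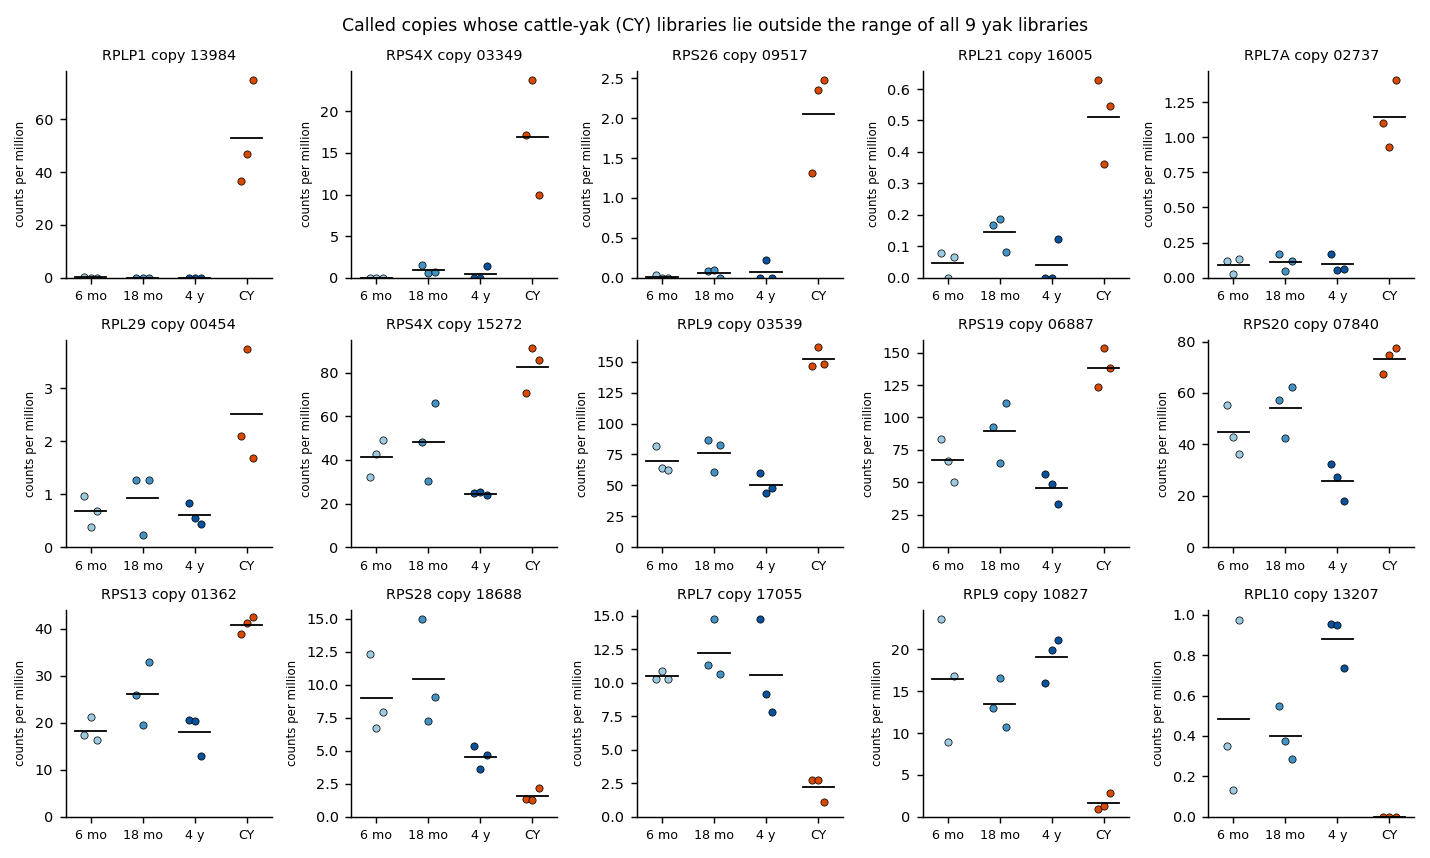
Level in CPM (vertical axes, each from 0 and on its own scale) of the 15 called genes whose 3 cattle–yak libraries (orange) lie outside the range of all 9 yak libraries (blue, by age). Points are single libraries and lines the group means. The first 11 panels lie above every yak and the last 4 below, and panels such as RPL21 copy 16005 and RPL10 copy 13207 stay under 1 CPM.

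The remaining called genes overlapped with younger yak. RPL17 copy 08491 had 0, 7 and 0 counts at 6 months, 330, 194 and 327 at 18 months, 0, 0 and 39 at 4 years and 733, 536 and 349 in cattle–yak. It was thus near 0 in juvenile and mature yak and present in those of 18 months and in cattle–yak, with a log2 fold change of 4.01 ± 1.05 against the yak of 4 years (adjusted p = 9.66e-03). RPS20 copy 23188 had no count in the yak of 4 years and 107, 456 and 85 in cattle–yak, at least 30.8-fold more against the floor (adjusted p = 2.53e-03). This bound rested on replicate 2 and was 12.2-fold without it, and the copy also had 127, 0 and 0 counts at 6 months and 19, 0 and 51 at 18 months. RPS20 copy 23182, which has the same description, had 58, 71 and 70 counts at 4 years and 399, 62 and 420 in cattle–yak. Among the cattle–yak, copy 23182 was thus lowest in replicate 2, where copy 23188 was highest. Whether the bound comes from the division of reads between these copies was not tested. RPL3 copy 22900 had 24, 43 and 20 counts at 4 years and 807, 281 and 270 in cattle–yak (log2 fold change 2.59, adjusted p = 8.74e-04), beside 369, 172 and 201 counts at 6 months.

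Apart from RPL35, the lower ones of this kind described here were poorly covered. RPL17 copy 12940 had 17, 32 and 27 counts at 4 years against 13, 5 and 11 in cattle–yak (log2 fold change -2.69, adjusted p = 1.56e-03). RPS6 copy 02566 had 30, 21 and 42 counts against 29, 0 and 9 (-2.69, adjusted p = 0.0290), and 224 counts in a single library of 6 months. RPL7L1, a relative of RPL7 with a role in ribosome assembly, had 17, 18 and 15 counts on copy 11593 at 4 years and 7, 13 and 2 in cattle–yak (-2.44, adjusted p = 9.40e-03).

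Genes of the same pathway that do carry a symbol moved in a like range. Of 26 cytosolic ribosomal protein genes with a symbol, 8 were called higher in cattle–yak and 1 lower, with a median log2 fold change of 0.53, beside 17.1% and 27% of all genes. Of 20 ribosome biogenesis genes tested, 5 were called higher and 0 lower (median 0.85), and of 6 translation factors and partners whose mRNAs start with a pyrimidine tract, 2 were called higher and 1 lower (median 0.50). Whether the median of the unnamed genes, 0.47, differs from these was not tested.

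Between the ages of yak, no unnamed ribosomal protein gene was called by edgeR's quasi-likelihood test. From 6 to 18 months, 69 genes were tested, beside 0.0202% of all genes called higher and 0.0471% lower (0.0672% in all). Of the 69, 2 had an unadjusted p below 0.05, both higher at 18 months, beside 14.3% of all genes higher and 11.5% lower. DESeq2 called 3 of 75 higher and 0 lower, beside 6.65% and 4.87% of all genes. From 18 months to 4 years, 70 genes were tested, and 0% of all genes were called higher and 0.0371% lower. An unadjusted p below 0.05 was found for 34 of the 70, 4 higher and 30 lower at 4 years, beside 11.8% of all genes higher and 23.6% lower. DESeq2 called 2 of 75 higher and 13 lower, beside 7.19% and 11.6% of all genes. In edgeR's fit the median log2 fold change of the 70 was -0.67, beside 0.01 over all genes.

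The latter comparison turned on replicate 2 of 18 months. Without it, 4 of 73 genes were called higher at 4 years (5.48%) and 20 lower (27.4%), beside 26.1% higher and 18.5% lower of 16377 genes, so the unnamed genes leaned to lower where all genes leaned to higher. This fit held a library fewer at 18 months than at 4 years. It was picked from the fits that each left out a library, with the marker levels of replicate 2 known. The largest falls with ample counts at both ages were those of RPL36A copy 03813, by 2.32 on the log2 scale (adjusted p = 1.07e-04), RPL39 copy 19979, by 2.10 (adjusted p = 3.59e-04), and RPL36A copy 19813, by 1.71 (adjusted p = 8.10e-04). RPL39 is a small protein that lines the exit tunnel and is X-linked in mammals. RPS20 copy 23188 and RPL36A copy 06453 were also called lower, on the sparse counts given above. RPL17 copy 08491 was called lower as well (log2 fold change -4.36, adjusted p = 0.0234), with 0, 0 and 39 counts at 4 years. Among the rises were those of RPL36 copy 20721 (1.34) and RPL10 copy 24703 (3.61).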

How the data were processed

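RFs were trimmed (fastp), cleared of structural RNAs (Bowtie2, BLAST), aligned to the yak genome (STAR) and counted per gene (RSEM) by the authors. Expected counts were deposited as unscaled whole numbers, and the authors' FPKM divides them by effective length and library total. The deposited log2 ratios, p-values and FDR of the authors' comparisons and their group means were not used.

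Counts were tested in R 4.3.3 with edgeR 4.0.16 (filterByExpr, TMM, quasi-likelihood test, Benjamini-Hochberg over all genes), on the 6 libraries compared. The SE is the size of a log2 fold change over the square root of F. Placement used diffSpliceDGE on the same fit, over all families of the table. Shares were tested by exact permutation with Python 3.11.15, scipy 1.17.1, pandas 2.3.3 and numpy 2.4.6, and figures used matplotlib 3.10.9. A fold against a group at 0 used a floor of 3 counts per library, and intervals and floors cover counting error only. On simulated counts, edgeR recovered 35% of 2-fold and 100% of 4-fold changes between cattle–yak and yak of 4 years, and placement 76% of families with 1 copy changed 4-fold. Recovery meant an adjusted p below 0.05 without the fold limit, in the right direction for edgeR and on any copy of the family for placement. All genes were simulated with the same dispersion, and those of the lowest levels were not changed. The values therefore do not give the recovery of the calls used here, least of all for sparse copies.

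The genes, lists and families were chosen with earlier results of these data known. Genes were named by a rule: the 10 highest in mean FPKM, the 8 called highest and 8 lowest without overlap above the median level, up to 12 with a share shift of 10 points and the symbol genes of their proteins, and called genes of the age comparisons. The remaining called genes, the further genes of the families with a share shift, and genes that share their KEGG orthology were named after their values were seen, and a few genes of these classes are not reported here. Labels give 3 animals per group, taken as 1 library each. Alternatives were DESeq2 1.42.0, RLE or library size alone, limma 3.58.1 on log2(FPKM + 1) and log2(FPKM + 0.1), all 12 libraries in 1 fit, no filter, no fold limit, families by identical description, the replicate number as a block, each library left out, and, chosen after seeing the data, families and sums by KEGG orthology.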

Additional observations from a re-analysis of the deposited data

How the results depend on the processing

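For cattle–yak against yak of 4 years, 20 genes were called higher and 11 lower, and the counts were 35 and 16 with no limit on the fold, 18 to 23 and 10 to 14 under the other settings of scaling, filter and tool, and 19 to 26 and 10 to 11 with a library left out. The same replicate numbers did not deviate together (r = 0.0327 to 0.0660), so they do not pair the animals, and under the replicate block 21 were called higher and 11 lower. Placement was called for 20 genes, for 16 with the replicate block, for 9 with families by identical description and for 13 to 19 with a library left out. Of the proteins tested as sums, 6 were higher and 2 lower, with 6 to 12 and 2 to 2 when a library was left out, and 6 and 2 both with the replicate block and by KEGG orthology, where RPL10 changed its direction to 1.20. The 15 genes whose share shifted by 10 points were 15 in each fit without a library. From 6 to 18 months, no gene was called, and 3 were higher with DESeq2, 1 with scaling by library size alone, 1 with the replicate block, and 0 to 2 higher and 0 to 0 lower with a library left out. From 18 months to 4 years, DESeq2 called 2 higher and 13 lower, and leaving out a library gave 0 to 4 higher and 0 to 20 lower, with 4 and 20 without replicate 2 of 18 months. Of the genes named by rule, RPL34 alone lost its call, at 0.95 without replicate 2 of the cattle–yak. The cause of these moves was not tested. The lower depth of the yak of 4 years (at most 17862516 counts) limits what minor copies with under 10 counts can show.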

Other observations

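RPL39, a small X-linked protein of the large subunit in mammals, was counted mainly on genes outside the description rule. By KEGG orthology, ENSBGRG00000002876 and ENSBGRG00000021369 shared its number and had identical counts in all 12 libraries, for example 122, 67 and 72 at 4 years and 814, 79 and 313 in cattle–yak. Another gene, ENSBGRG00000005885, had no count at 6 months, 275 in replicate 2 of 18 months alone at that age, 122, 67 and 0 at 4 years and 0, 2903 and 1444 in cattle–yak. It held 90.2% and 59.2% of the RPL39 counts in replicates 2 and 3 of the cattle–yak and 0 in replicate 1, and its log2 fold change of 3.38 against the yak of 4 years had adjusted p = 0.108. The unnamed RPL39 copy 19979 measured 16.7, 4.12 and 9.65 CPM in the same cattle–yak.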
